A study of Homo sapiens with 6 samples.

Results

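The ERBB receptors are cell surface tyrosine kinases that are switched on by the EGF-like growth factors. EGFR and ERBB3 bind ligands, ERBB2 binds none and serves as the preferred partner of the others, and ERBB3 has little kinase activity of its own and passes the signal on as part of a pair, mainly to PI3K. The ligands are made as membrane proteins and are cut loose by ADAM proteases. Amphiregulin (AREG), epiregulin (EREG), TGFA and epigen (EPGN) bind EGFR, although EREG also binds ERBB4, while HBEGF and betacellulin (BTC) bind both EGFR and ERBB4. ERRFI1, also called MIG6, binds the active kinase domain of EGFR and shuts it off. In the colon epithelium these factors drive growth and repair, and EREG and AREG are known for their high levels in many colorectal cancers.

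The 10 genes described here are EGFR, ERBB2, ERBB3, AREG, EREG, TGFA, HBEGF, BTC, EPGN and ERRFI1. They were taken by symbol from the 56638 gene symbols in RNA-seq counts of HCT116, a human colorectal carcinoma cell line. METTL3 is the catalytic subunit of the complex that writes N6-methyladenosine (m6A) on mRNA. The WT group held 3 samples of unedited HCT116 cells and the METTL3-KO group 3 samples of HCT116 cells in which METTL3 was edited by CRISPR-Cas9, both grown in the same serum-containing medium. The study's methods describe the knockout as a monoclonal line made by lentiviral delivery and puromycin selection. If the METTL3-KO samples came from it they stand for a single clone, and clone and knockout cannot be told apart. The names of the deposited data read as those of an siRNA knockdown, which the labels do not mention, and the group is called METTL3-KO as labelled. No source describes the samples of a group as separate cultures, and the p-values then measure only the spread between these samples, which may be technical.

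Each sample held between 20936091 and 30142144 counts on genes. METTL3 itself was counted 841, 682 and 623 times in WT and 219, 169 and 162 times in METTL3-KO, so that all 6 samples, the third replicates included, lay on the side their labels give. Its level fell from 30.0 ± 0.724 to 7.28 ± 0.400 (CPM, the counts scaled to a library of fixed size, here after TMM scaling between samples; mean ± SD, n = 3), a log2 fold change of -2.04 with an adjusted p of 1.59e-07 in edgeR's quasi-likelihood test. The epithelial markers EPCAM and KRT8 were high in every sample, at 476 to 560 and 3480 to 5660 CPM, and the endothelial and hepatocyte markers PECAM1 and ALB were at 0 counts throughout. CDX1 and CDX2, in the same epithelial list, were low at 2.34 to 4.42 and 5.49 to 8.85 CPM, and CDX2 had a log2 fold change of -0.19. The fibroblast marker COL1A1 was at 4.69 to 7.87 CPM. Over all 8 epithelial markers, most of it KRT8, the summed level was 5800 to 7190 CPM in WT and 8300 to 9250 CPM in METTL3-KO. The 7 markers of other cell types together, most of it COL1A1, stayed at 4.78 to 7.95 CPM. The part of the difference in epithelial markers in the results below was not tested. In bulk RNA, a change in the share of cells expressing a gene and a change in RNA per cell cannot be told apart.

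The third replicate of each group stood apart from the other two replicates. The chi-square per gene between counts was 2.58 for WT replicates 1 and 2 but 23.1 and 23.0 for pairs with WT replicate 3. In METTL3-KO it was 2.34 against 11.2 and 8.32. The difference followed transcript length in opposite directions in the groups: for the 944 longest transcripts (at least 7694 nt) the median of WT replicate 3 was 0.35 log2 units above replicates 1 and 2, and the median of METTL3-KO replicate 3 was 0.19 log2 units below them, a difference of -0.19. Long transcripts such as that of EGFR (9905 nt) were thus raised in WT replicate 3 and lowered in METTL3-KO replicate 3. Results that rest on these samples are given with and without them, and also after a correction of the counts for the length and GC content of the transcripts. Without the third replicates of both groups 4823 of all tested genes were called lower and 4555 higher, against 2959 and 2986 with all 6 samples. After the correction 3842 were called lower and 3848 higher. Low adjusted p-values from both fits are thus shared by many genes.

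Of the 10 genes, 3 rose in METTL3-KO cells (ERBB3, EREG and BTC), 1 fell (ERRFI1) and 6 did not pass the test at an adjusted p of 0.05. Over all 22452 tested genes 26.5% were called, 13.3% higher and 13.2% lower, and among the more highly expressed genes (mean log2 CPM 5 or above) 40.9% were, 22.1% higher and 18.9% lower. The count among these genes is therefore in the range of the background. The median log2 fold change was 0 over the 10 genes and -0.02 over all tested genes. In 5 of the 10 genes the groups did not overlap, with METTL3-KO above WT in 3 and below in 2. The same held for 40.9% of all tested genes, 20.2% above and 20.7% below. Among the ligands EREG and BTC differed by more than 1.5-fold, while TGFA and HBEGF overlapped between the groups.

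**Figure D1:**
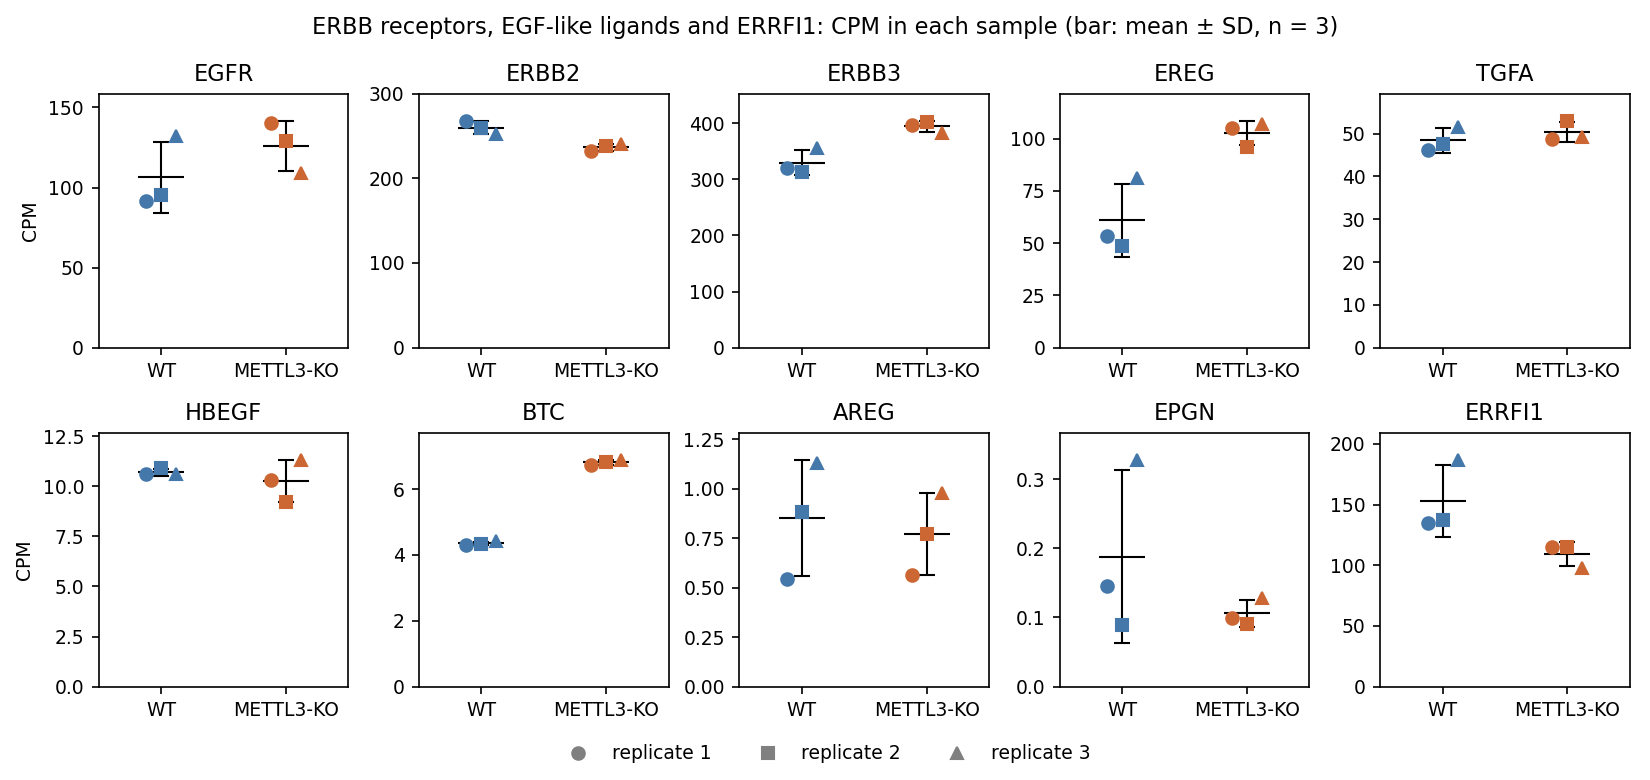
Level of each of the 10 genes in CPM (vertical axes, starting at 0) in the WT (blue) and METTL3-KO (orange) samples, with the replicate shown by the symbol and bars for the mean ± SD of 3 samples. ERBB3, EREG and BTC lay higher in all METTL3-KO samples, ERBB2 and ERRFI1 lower, and the third WT sample (triangle) stood above the other two for EGFR, EREG and ERRFI1.

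EGFR, the receptor of nearly all ligands described here, lies at chr7:55086710-55279321 on the plus strand (GRCh37). Its level was 91.9, 95.3 and 132 CPM in WT replicates 1 to 3 and 140, 129 and 109 CPM in METTL3-KO replicates 1 to 3. The groups overlapped because the third WT sample lay above 2 of the METTL3-KO samples and the third METTL3-KO sample lay below the other two. The log2 fold change came to 0.25 (SE 0.133, 95% interval -0.04 to 0.54), which did not pass the test (adjusted p = 0.199, edgeR's quasi-likelihood test). The call for EGFR depended on the samples, the filter and the correction. Without WT replicate 3 the log2 fold change was 0.44 (adjusted p = 0.000683), and without the third replicates of both groups it was 0.53 (SE 0.0464, adjusted p = 3.4e-14). After correction for transcript length and GC content the levels were 101, 104 and 117 CPM in WT and 129, 124 and 117 CPM in METTL3-KO, and the log2 fold change of 0.20 passed the test (adjusted p = 0.0227). It also passed at 0.26 with no filter beyond 1 count (adjusted p = 0.0157). EGFR kept the positive direction in all 14 alternative analyses and was called in 4 of them, with adjusted p-values from 3.4e-14 to 0.487.

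ERBB2, the ligandless partner receptor (chr17:37844167-37886679, plus strand), had 268, 260 and 252 CPM in WT and 232, 238 and 240 CPM in METTL3-KO. The METTL3-KO samples were all lower than the WT samples, but by a small margin. The log2 fold change of -0.13 (SE 0.0658, 95% interval -0.28 to 0.01) did not pass the test (adjusted p = 0.16). It passed without WT replicate 3 at -0.15 (adjusted p = 0.0479) and after the length and GC correction at -0.18 (adjusted p = 0.00569), and over all 14 alternatives the adjusted p ran from 0.000337 to 0.401.

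ERBB3 (chr12:56470583-56497289, plus strand) passed the test with all 6 samples and no correction. Its level was 320, 314 and 356 CPM in WT and 397, 403 and 383 CPM in METTL3-KO, so that the highest WT sample stayed below the lowest METTL3-KO sample. The difference was 0.26 in log2 units (SE 0.0717, 95% interval 0.10 to 0.41, adjusted p = 0.0194, edgeR), a 1.2-fold higher level. The call was lost when WT replicate 1 or 2 or METTL3-KO replicate 1 or 2 was left out, with log2 fold changes of 0.23 to 0.25 and adjusted p-values of 0.0706 to 0.0865. It held without the third replicates of both groups at 0.33 (adjusted p = 1.17e-10) and after the length and GC correction at 0.21 (adjusted p = 0.00145). ERBB3 stayed positive in all 14 alternatives and was called in 9, with adjusted p-values from 1.17e-10 to 0.125.

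Per length, ERBB2 and ERBB3 overlapped in WT cells and lay apart in METTL3-KO cells. In RPKM, which divides the CPM by the length of the annotated transcript in kilobases, ERBB2 stood at 57.1 ± 1.81 and ERBB3 at 58.8 ± 4.01 in WT (SD, n = 3), and the ranges of their samples overlapped. In METTL3-KO cells ERBB3 reached 68.2 to 71.7 RPKM and ERBB2 50.9 to 52.8 RPKM, with no overlap. EGFR was the lowest of the 3 receptors in both groups, at 9.28 to 13.3 RPKM in WT and 11 to 14.2 RPKM in METTL3-KO. Of the annotated transcript of EGFR, 1.88% overlaps exons of the antisense gene EGFR-AS1, and 3.58% of that of ERBB2 overlaps exons of MIEN1, where reads cannot be assigned without strand. The remaining receptor, ERBB4, was represented by 1 count in 1 WT sample and by none in the other 5 samples.

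EREG, a ligand with low affinity and long-lasting action, showed the largest fold change of the members that passed the test. The gene lies at chr4:75230862-75254466 on the plus strand, in the cluster of EGF-like ligands that also holds EPGN, AREG and BTC. It was counted 1470, 1099 and 1728 times in WT and 3160, 2109 and 2520 times in METTL3-KO, which is 53.5, 48.6 and 81.0 CPM against 105, 95.9 and 107 CPM. All METTL3-KO samples lay above all WT samples, and the third WT sample was the nearest to them. EREG rose 1.68-fold or by 0.75 log2 units (SE 0.152, 95% interval 0.42 to 1.08, adjusted p = 0.00315, edgeR). Without the third replicates of both groups EREG differed by 0.97 log2 units (SE 0.0539, adjusted p = 1.18e-21), and after the length and GC correction by 0.76 (adjusted p = 0.000181). The corrected levels were 55.6, 50.8 and 75.2 CPM in WT and 103, 95.0 and 110 CPM in METTL3-KO, so that WT replicate 3 still stood apart. EREG was called in all 14 alternatives, with log2 fold changes from 0.62 to 1.01 and adjusted p-values from 1.18e-21 to 0.0168.

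BTC, a ligand of EGFR and ERBB4 in the same cluster (chr4:75669969-75719733, minus strand), was expressed at a low level that hardly varied within a group. The counts were 118, 98 and 94 in WT and 203, 150 and 162 in METTL3-KO, or 4.30, 4.34 and 4.41 CPM against 6.73, 6.82 and 6.89 CPM. The gap between the groups was far wider than the spread within either, and the third replicates did not stand apart. At counts of this size the noise of counting alone exceeds that spread, so the closeness of the replicates is not read as a trait of BTC. BTC rose by 0.65 log2 units (SE 0.115, 95% interval 0.40 to 0.90, adjusted p = 0.00137, edgeR), and the log2 fold change stayed between 0.64 and 0.70 in the 14 alternatives, all called, with adjusted p-values from 0.000121 to 0.0157.

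TGFA, the classical autocrine EGFR ligand of carcinoma cells (chr2:70674416-70781325, minus strand), had 46.1, 47.5 and 51.6 CPM in WT and 48.8, 53.0 and 49.2 CPM in METTL3-KO. The groups overlapped, and the log2 fold change of 0.06 had a 95% interval of -0.11 to 0.23 (adjusted p = 0.64). HBEGF, the heparin-binding ligand (chr5:139712428-139726188, minus strand), had 10.6, 10.9 and 10.6 CPM in WT and 10.3, 9.19 and 11.3 CPM in METTL3-KO. Its log2 fold change of -0.06 (95% interval -0.29 to 0.17, adjusted p = 0.722) did not pass the test either, and it turned to 0.01 without METTL3-KO replicate 2. For both genes the intervals leave out a change as large as that estimated for EREG or BTC.

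Per length, and with AREG left aside because its level could not be measured, TGFA and EREG were the highest ligands of the 10 genes in WT cells. Their levels of 11.2 to 12.5 RPKM and 10.5 to 17.6 RPKM overlapped. In METTL3-KO cells EREG at 20.8 to 23.2 RPKM was the highest of these ligands, above TGFA at 11.9 to 12.9 RPKM. HBEGF followed at 4.54 ± 0.0810 RPKM in WT and 4.35 ± 0.442 RPKM in METTL3-KO, and BTC was lower again at 1.64 ± 0.0210 and 2.57 ± 0.0293 RPKM. Of the summed RPKM of EREG, TGFA, HBEGF, BTC and EPGN, EREG made up 40.1%, 37.1% and 48.3% in WT and 54.7%, 51.8% and 54.5% in METTL3-KO. The sum itself was 29.0, 28.4 and 36.4 RPKM in WT and 41.5, 40.2 and 42.6 RPKM in METTL3-KO, with no overlap and with the third WT sample highest in its group. These sums carry no test of their own, and AREG is in neither the sums nor the ranking.

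**Figure D2:**
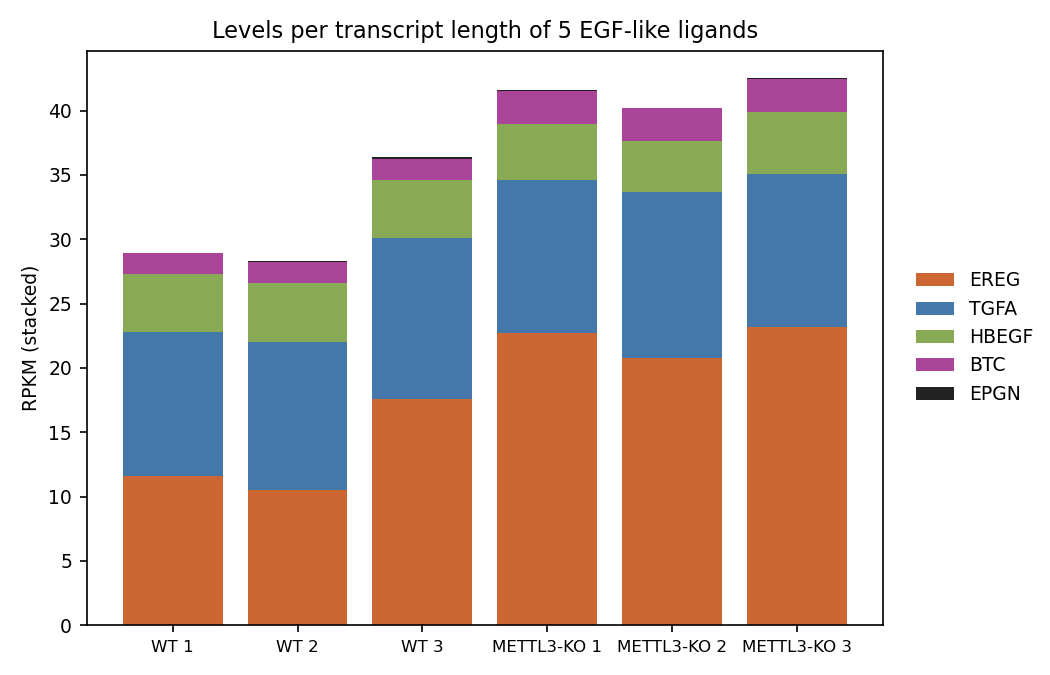
Stacked RPKM (vertical axis) of the ligands EREG, TGFA, HBEGF, BTC and EPGN in each of the 6 samples. The EREG segment was 10.5 to 17.6 RPKM in WT and 20.8 to 23.2 RPKM in METTL3-KO, while the TGFA segment stayed between 11.2 and 12.9 RPKM in all samples.

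AREG could not be measured from these counts because the genome build carries it in 2 nearly identical copies. The spliced models of AREG (chr4:75310853-75320722, plus strand) and AREGB (chr4:75480629-75490486, plus strand) align over 1234 bases with 1 different base, an identity of 99.92%. The difference is G240A, counted from 1 at the start of the transcript with the AREG base given before the AREGB base, and it lies in the coding sequence. The stretch around it is shown with the differing base in capitals, at chr4:75311078-75311106 for AREG and chr4:75480854-75480882 for AREGB, both on the plus strand.
AREG: ctaccgccggcgccGgtggtgctgtcgct
AREGB: ctaccgccggcgccAgtggtgctgtcgct
Of the 150-base words of the AREG transcript, 86.2% occur letter for letter in AREGB, and a read pair that aligns equally well to both places was left out of the authors' counts as not unique. Only 15, 20 and 24 counts were left for AREG in WT and 17, 17 and 23 in METTL3-KO, with 0 to 7 per sample for AREGB. The log2 fold change of AREG was -0.14 (95% interval -0.88 to 0.61, adjusted p = 0.807), it turned to 0.11 without WT replicate 3 and to 0.07 without METTL3-KO replicate 1, and it was -0.11 with both copies summed (adjusted p = 0.814). No 75-base word of EREG occurs in either copy, so that the EREG counts are free of this loss.

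EPGN, the epigen gene at chr4:75174187-75182506 (plus strand), was close to the detection limit with 4, 2 and 7 counts in WT and 3, 2 and 3 in METTL3-KO. A difference was not detectable at this depth (log2 fold change -0.77, 95% interval -2.26 to 0.73, adjusted p = 0.451). The ligands outside the 10 genes were mostly silent: NRG1 and NRG3, which encode neuregulins, had no count in any sample, and NRG2 had at most 1 count per sample. NRG4, a neuregulin that binds ERBB4, had 236, 196 and 139 counts in WT and 164, 146 and 159 in METTL3-KO (log2 fold change -0.35, adjusted p = 0.0969), and -0.53 (adjusted p = 0.000384) without the third replicates. EGF, the founding ligand of the family, was low but rose from 39, 18 and 22 counts to 67, 55 and 65 counts. That is 1.08 ± 0.315 CPM against 2.50 ± 0.271 CPM (SD, n = 3), a rise of 1.17 log2 units (SE 0.231, adjusted p = 0.00263, edgeR), with 1.01 to 1.44 over the 14 alternatives and adjusted p-values of 7.83e-06 to 0.0156.

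ERRFI1, the feedback inhibitor (chr1:8064464-8086369, minus strand), was the only member that fell. Its level was 135, 137 and 187 CPM in WT and 115, 115 and 97.9 CPM in METTL3-KO. The groups did not overlap, with METTL3-KO the lower, but the third replicates stood apart in both groups, above the others in WT and below them in METTL3-KO. ERRFI1 fell by 0.49 log2 units (SE 0.12, 95% interval -0.75 to -0.22, adjusted p = 0.0103, edgeR), a level 0.714 times that of WT. Without WT replicate 3 the log2 fold change was -0.31 (adjusted p = 0.00301), and without the third replicates of both groups it was -0.25 (SE 0.0441, adjusted p = 4.63e-06). The size of the fall thus depended on those samples. The call held in both fits, but 3793 and 4823 of all tested genes were called lower in them, against 2959 with all samples. After the length and GC correction the levels of ERRFI1 were 135, 136 and 185 CPM in WT and 115, 117 and 98.3 CPM in METTL3-KO. The third replicates thus still stood apart. The log2 fold change of -0.47 in that fit (adjusted p = 0.00431) rests on them as well. ERRFI1 stayed negative in all 14 alternatives, from -0.56 to -0.25, and was called in 13 of them, with adjusted p-values from 3.87e-07 to 0.0591.

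**Figure D3:**
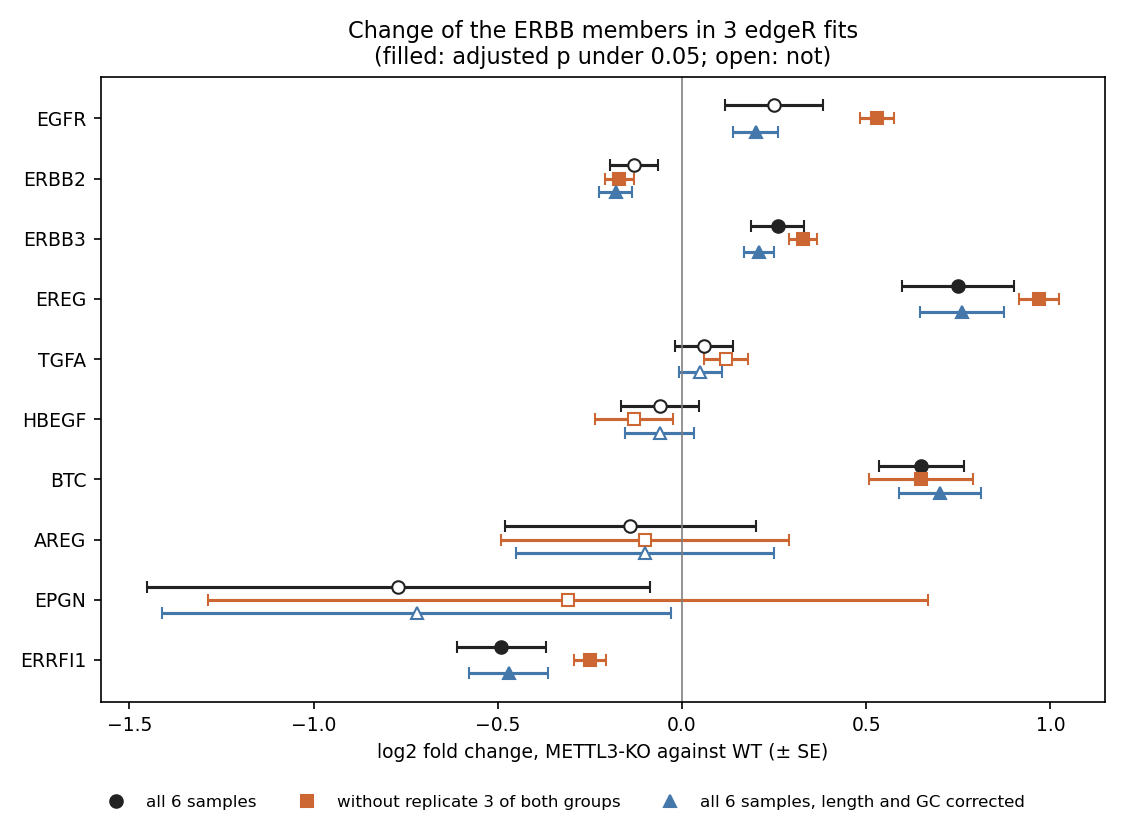
Log2 fold change of the 10 genes, METTL3-KO against WT, ± SE (horizontal axis) from edgeR with all 6 samples (black circles), without replicate 3 of both groups (orange squares) and with all 6 samples after the transcript length and GC correction (blue triangles). Filled symbols had an adjusted p under 0.05. EREG, BTC and ERBB3 were positive and ERRFI1 negative in all 3 analyses, whereas EGFR was called at 0.53 and 0.20 but not at 0.25.

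The genes most like EGFR, EREG and ERRFI1 were found by the Euclidean distance between log2 CPM values centred on their mean over the 6 samples, among 10377 tested genes (mean log2 CPM 3 or above). For EGFR they were WNK1, SON and MAN1A2, at distances of 0.0385, 0.0468 and 0.0492 log2 units. WNK1, a kinase of ion transport control, had 181, 190 and 269 CPM in WT and 282, 263 and 220 CPM in METTL3-KO, and so had the high WT replicate 3 and the low METTL3-KO replicate 3 that EGFR had. For ERRFI1 the nearest were POU2F1, CLASP1 and ASAP1, at 0.0634 to 0.0883, with the third replicate displaced in the same manner. EREG had no neighbour as close, and its nearest genes were TRMT10A, UVSSA and PTENP1 at 0.223, 0.235 and 0.257.

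The transcripts were also searched for GGACT, a common form of the motif that METTL3 methylates, on the transcript strand only. No m6A measurement was used here, so a match describes the sequence and not a methylated site. EGFR held 12 copies or 1.21 per kilobase, ERBB3 6 copies, HBEGF 4 copies, ERBB2, EREG and TGFA 3 copies each, EPGN 2 copies and BTC 1 copy, while AREG and ERRFI1 held none. Over 9471 genes (mean log2 CPM 3 or above) the median was 0.918 copies per kilobase, and 91.3% had at least 1 copy. The 21 bases around the copy nearest the stop codon are given for EGFR (coding, chr7:55273191-55273211, plus strand), for ERBB3 (coding, chr12:56490872-56490892, plus strand), for EREG (3′UTR, chr4:75251444-75251464, plus strand) and for BTC (3′UTR, chr4:75670184-75670204, minus strand), as the members among the 10 genes that were called higher in any of the analyses above, with the motif in capitals.
EGFR: taccagcaGGACTtctttccc
ERBB3: ggctgctgGGACTatgcccag
EREG: aatttgatGGACTaattatta
BTC: tttttcctGGACTgagtttgg
Counted from the last base of the stop codon, the copies shown start at -111 nt in EGFR, -1703 nt in ERBB3, 927 nt in EREG and 1691 nt in BTC. ERBB3, EREG and BTC had 1.07, 0.65 and 0.377 copies per kilobase, on both sides of the median, and ERRFI1 had none.

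EREG, BTC, EPGN and AREG share a stretch of chromosome 4, and the genes around them were looked at after the values of EREG and BTC had been seen. Of 29 other tested genes within 5 Mb (mean log2 CPM 3 or above), 6 were called higher and 7 lower, and their median log2 fold change was -0.06. Over all tested genes 13.3% were called higher and 13.2% lower. At mean log2 CPM 5 or above the shares were 22.1% and 18.9%. The median over 342 genes of chromosome 4 was 0.02. The median does not describe every part of the window. G3BP2, USO1 and SDAD1, which start between 76567033 and 76862103, had log2 fold changes of 1.25, 0.61 and 0.37 and were called higher. SCARB2, which starts at 77079890, was called lower at -0.66. Whether EREG and BTC share a local cause with these genes was not tested.

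Ligand shedding was represented by 7 tested genes, of which 2 fell, 1 rose and 4 did not pass the test, with a median log2 fold change of -0.09. For comparison with this list and those below, 26.5% of all tested genes were called, and 40.9% of those of mean log2 CPM 5 or above. ADAM10, the main sheddase of EGF and BTC, had 143, 147 and 178 CPM in WT and 108, 111 and 92.8 CPM in METTL3-KO and fell by 0.58 in log2 units (adjusted p = 0.00102, SE 0.0993). The third replicates were again the outermost, and without them the log2 fold change was -0.41 (adjusted p = 3.95e-11). ADAM17, which sheds TGFA, AREG, EREG and HBEGF, had a log2 fold change of -0.30 that did not pass (adjusted p = 0.0555). It was -0.15 without the third replicates (adjusted p = 0.0669) and passed at -0.29 after the length and GC correction (adjusted p = 0.0113). The iRhoms, which carry ADAM17 to the cell surface, went in opposite directions: RHBDF1 fell by 0.35 (adjusted p = 0.00358) and RHBDF2 rose by 0.35 (adjusted p = 0.00613) on the log2 scale. TIMP3, an inhibitor of ADAM17, had no counts.

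Of 12 tested genes of receptor endocytosis, ubiquitination and inhibition, 3 rose, 1 fell and 8 did not pass, with a median of 0.09. The share called was 26.5% over all tested genes and 40.9% at mean log2 CPM 5 or above. CBLB, a ubiquitin ligase that sends EGFR to degradation, showed the largest change of the list, from 22.4, 23.4 and 29.8 CPM in WT to 51.8, 51.8 and 54.7 CPM in METTL3-KO (log2 fold change 1.07, SE 0.105, adjusted p = 2.34e-05). Its relative CBLC rose by 0.63 (adjusted p = 0.000399), and SH3KBP1, the adaptor CIN85 that links CBL proteins to the endocytic machinery, rose by 0.64 (adjusted p = 3.89e-05). CBL itself had 76.2, 72.2 and 118 CPM in WT and 98.6, 99.4 and 72.3 CPM in METTL3-KO. Its groups overlapped, with a log2 fold change of 0.03 (adjusted p = 0.93) with all samples and 0.41 (adjusted p = 3.92e-10) without the third replicates, and CBL was singled out after its values were seen. LRIG1, a membrane protein that lowers ERBB receptor levels, fell by 0.37 (adjusted p = 0.00685). The number of calls in this list was 10 in place of 4 without the third replicates and 7 without WT replicate 3. Calls over all tested genes rose as well, from 2959 lower and 2986 higher to 4823 and 4555 without the third replicates.

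Among 27 adaptors and components of the RAS-ERK and PI3K pathways, 4 rose, 1 fell and 22 did not pass, with a median of 0.08. The share called was 26.5% over all tested genes and 40.9% at mean log2 CPM 5 or above. PLCG1, the phospholipase that docks on activated EGFR, fell from 94.8 ± 1.39 to 60.7 ± 1.58 CPM (SD, n = 3; log2 fold change -0.64, SE 0.0687, adjusted p = 4.2e-05). MAPK3, which encodes ERK1, rose by 0.67 (adjusted p = 0.000307), PIK3R3, a regulatory subunit of PI3K, rose by 0.44 (adjusted p = 0.00282) and STAT3 rose by 0.37 (adjusted p = 0.00163). Without WT replicate 3 the list held 10 calls in place of 5, and without the third replicates of both groups 16. Calls over all tested genes rose in the same fits, from 2959 lower and 2986 higher to 3793 and 3809, and to 4823 and 4555.

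Of 10 genes that respond to ERK signalling, 3 rose, 2 fell and 5 did not pass, with a median of 0.07. The share called was 26.5% over all tested genes and 40.9% at mean log2 CPM 5 or above. The changes did not share a direction. ETV5, an ETS transcription factor, fell from 49.4 ± 2.87 to 28.1 ± 2.52 CPM (SD, n = 3; log2 fold change -0.81, SE 0.0888, adjusted p = 4.97e-05), and DUSP4, a MAP kinase phosphatase, fell by 0.35 (adjusted p = 0.0051). CCND1 (cyclin D1) rose by 0.39 (adjusted p = 0.00155), EPHA2 rose by 0.31 (adjusted p = 0.00733) and PHLDA1 rose by 0.27 (adjusted p = 0.0116). DUSP6, a phosphatase specific for ERK, stayed at 65.8 to 69.6 CPM in WT and 67.7 to 72.7 CPM in METTL3-KO (log2 fold change 0.05, adjusted p = 0.646), and SPRY4 was at -0.22 (adjusted p = 0.0744). SPRY4 passed without the third replicates at -0.13 (adjusted p = 0.0418) and after the length and GC correction at -0.26 (adjusted p = 0.00332). The levels of phosphorylated proteins were not measured here.

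**Figure D4:**
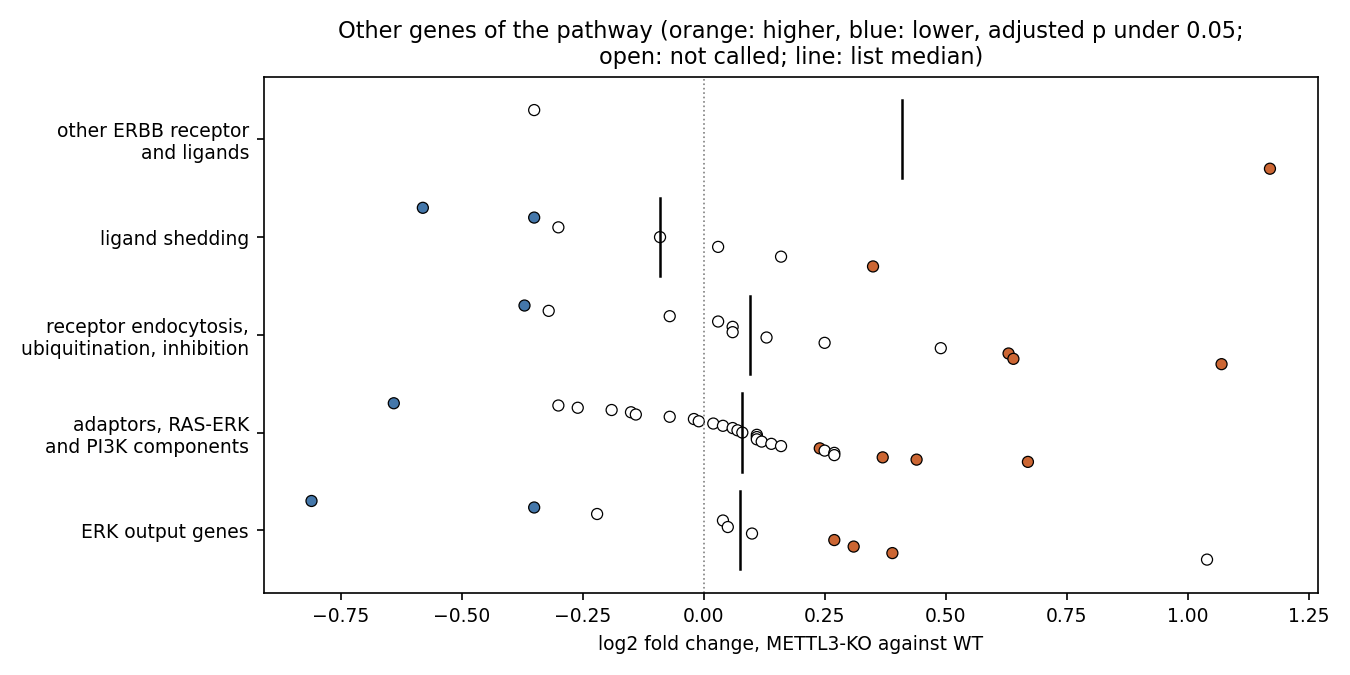
Log2 fold change, METTL3-KO against WT (horizontal axis), of each tested gene in 5 lists of pathway genes. Points are genes (orange, called higher; blue, called lower; open, adjusted p of 0.05 or more) and vertical bars are the list medians, which were -0.09 for ligand shedding and 0.07 to 0.09 for the 3 lists below it. CBLB at 1.07 and ETV5 at -0.81 were the outermost called genes of those lists.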

How the data were processed

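RNA-seq of 3 WT and 3 METTL3-KO samples of HCT116 was used. Per the labels and the study's methods, the authors prepared TruSeq libraries, mapped paired reads to hg19 with TopHat2 2.0.11 using an Ensembl GRCh37 transcript index, and assigned the pairs to genes with htseq-count (union mode). What they deposited are whole-number counts per gene symbol, not normalized. The strand setting of the counting is not given in the sources used here. Per the submitters' processing notes the tools were TopHat and HTSeq. The deposited files number the WT samples otherwise than the labels, and carry the names NC (WT) and SiM3 (METTL3-KO), which could also stand for an siRNA experiment. The labels were followed.

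Genes below 5 total counts in each group were removed, which left 22452 of 56638. Testing used the quasi-likelihood test of edgeR 4.0.16 in R 4.3.3 (TMM, two-sided, no covariates, Benjamini-Hochberg over all tested genes, threshold 0.05), checked on simulated data. The SE is the log2 fold change divided by the square root of F. RPKM used the canonical transcript of a GENCODE annotation on GRCh37, which gave sequences and positions. The length and GC correction took splines with 5 degrees of freedom per sample, fitted on genes of mean log2 CPM over 3. The alternatives were DESeq2 1.42.0, RLE scaling, other filters, the replicate block, each sample left out, replicate 3 left out of both groups, the correction, and AREG with AREGB. Depth limits precision for AREG, EPGN, EGF and BTC, and intervals cover these samples only.

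The members and lists were chosen with earlier results of these data known, so no list was tested as a set. Named genes were the members, METTL3, AREGB, ERBB4, EGF and the neuregulins, up to 3 genes called in each direction with the largest change per list, and the 3 genes most like EGFR, EREG and ERRFI1. ADAM17, TIMP3, CBL, DUSP6 and SPRY4 were added after their values were seen.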

Additional observations from a re-analysis of the deposited data

How the results depend on the processing

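METTL3, EREG, BTC and EGF kept their direction and call in all 14 alternatives, and TGFA, HBEGF, AREG and EPGN were called in none. The direction turned for AREG (0.11 without WT replicate 3, 0.07 without METTL3-KO replicate 1, from -0.40 to 0.11 with 1 sample left out) and HBEGF (0.01 without METTL3-KO replicate 2, from -0.13 to 0.01 with 1 sample left out). EPGN was not tested under filterByExpr and had no adjusted p in DESeq2. For all tested genes, 2959 were called lower and 2986 higher, against 4823 and 4555 without replicate 3 of both groups. With the length and GC correction the numbers were 3842 and 3848, and with the correction and the block 2947 and 3033. With no filter beyond 1 count they were 3339 and 3425, of a larger set of genes. The added calls among the members and lists in these fits are to be read beside these numbers. Leaving out 1 sample at a time gave 1976 to 3793 lower and 2188 to 3809 higher. Of the 10 members, 1 was called lower, and 2 (ERRFI1 and ERBB2) without replicate 3 of both groups and with the length and GC correction, with or without the block. Leaving out 1 sample gave 1 to 2 members lower and 2 to 4 higher. EGFR was called also with no filter beyond 1 count (adjusted p = 0.0157). The endocytosis list had 4 calls, and 7 with no filter beyond 1 count, 10 without replicate 3 of both groups (median 0.36), and 7 with the correction, with or without the block. Leaving out 1 sample gave 4 to 7 calls and medians of 0.05 to 0.26. The adaptor list had 5 calls, and 8 with no filter beyond 1 count, 16 without replicate 3 of both groups (median 0.14), 12 with the correction and 10 with the correction and the block. Leaving out 1 sample gave 4 to 10 calls and medians of 0.06 to 0.14. For the ERK list 1 sample left out gave 5 calls each time and medians of 0.07 to 0.12, and for the shedding list 3 to 4 calls and medians of -0.10 to -0.05. For all genes and for the endocytosis and adaptor lists the highest of these came without WT replicate 3. The causes were not tested.

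Same-numbered WT and METTL3-KO samples did not deviate together (correlations of -0.585, -0.39 and -0.783 over 10320 genes). The third replicates stood apart in opposite directions in the groups, so these correlations cannot tell whether same-numbered samples were prepared together. With the replicate number as a block, 1719 genes were called lower and 1810 higher, the members had 2 higher (EREG 0.78, BTC 0.65) and 0 lower, and the ERK list had 2 calls. ERBB3 was then at 0.26 (adjusted p = 0.125) and ERRFI1 at -0.47 (adjusted p = 0.0591). In the same fit RHBDF2, LRIG1, SRC, DUSP4, EPHA2 and PHLDA1 lost their calls.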
